A study of Mus musculus with 8 samples.

Results

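The 10 genes described here encode the steps by which glucagon is read in the hepatocyte: the glucagon receptor (Gcgr), the G protein subunits Gnas and Gnai2, the adenylyl cyclases Adcy6 and Adcy9, the protein kinase A (PKA) subunits Prkaca, Prkar1a and Prkar2a, and the transcription factor Creb1 with its coactivator Crtc2. They were chosen by symbol: each is represented by the array probe set that the platform annotation gives to that gene alone, and by the brighter one where there were several. All 10 cleared the filter on low signal, among 13845 genes tested. Hepatocytes isolated from male C57Bl6J mice were kept in low-glucose medium with 100 nM dexamethasone. They received DMSO (the solvent control), 100 nM glucagon, 2 µM GW4064 (a synthetic agonist of the bile acid receptor FXR), or glucagon and GW4064 together, each for 6 h. Every treatment was run in 2 experiments, each on a separate pool of cells from 3 mice, with 1 Affymetrix mouse gene array per treatment and experiment, so n = 2 per group and 8 arrays in all. The series asks how FXR and PKA act together on gluconeogenesis in fasting. All groups shared the culture medium and its dexamethasone, and no sample is from an intact liver.

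Glucagon binds a receptor of the hepatocyte surface that activates the stimulatory G protein, which switches on adenylyl cyclase. Cyclic AMP then binds the regulatory subunits of PKA and frees the catalytic subunits, which phosphorylate metabolic enzymes and CREB. CRTC2 enters the nucleus in the same response and joins CREB at cyclic AMP response elements, the DNA sites through which genes of gluconeogenesis are switched on. Most of this signalling runs through protein activity and location, and an array reads the amount of messenger RNA only.

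Glucagon moved 2 of its known target genes by far more than any gene of the cascade. Averaged over the arrays with and without GW4064, glucagon raised Pck1, the gluconeogenic phosphoenolpyruvate carboxykinase, by 5.15 on the log2 scale (limma SE 0.28, adjusted p = 0.000571). It raised G6pc, the glucose-6-phosphatase, by 4.08 (SE 0.15, adjusted p = 0.000131). In the same comparison the differences of the 10 cascade genes lay between -0.20 and 0.55, and 0 of 10 passed the test (limma, adjusted p below 0.05), where 1.32% of all genes tested did. The median absolute difference was 0.12 over the 10 genes and 0.13 over all genes. Unadjusted p-values were below 0.05 for 3 of the 10, against 14.5% of all genes. When the experiment was fitted as a block, so that arrays were compared within their own cell pool, 1 of the 10 passed, the cyclase gene Adcy9, where 5.76% of all genes did.

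Hepatocyte markers were bright: 9 of 9 on the array exceeded the filter on all 8 arrays, with a median signal of 11.47 to 11.87. Markers of other cell types were mostly dim, with medians of 3.02 to 3.25 for Kupffer cells, 2.91 to 3.07 for stellate cells, 2.99 to 3.48 for cholangiocytes and 2.73 to 3.08 for lymphocytes and neutrophils, where the filter lay at 3.13 to 3.27. Of the 36 such markers on the array, 12 did not reach the filter on any array, among them Cd5l, Clec4g, Lrat, Cldn7 and Cd3e. Single markers were brighter, among them Cd68 of macrophages at 10.1 to 10.8 and Sox9 of cholangiocytes at 5.43 to 7.88. Endothelial markers had a median of 4.15 to 4.74 and 6 of 8 were above the filter on every array. The GW4064 array of experiment 2 stood apart: olfactory and vomeronasal receptor genes, dim in these cells, had a median signal of 3.25 there and of 2.95 to 2.98 on the other 7. On that array 4 of the 10 cascade genes had their lowest value, as did 30.1% of all genes.

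Promoters of 3 members are shown, because the cascade ends at CREB. They are the members whose 4 arrays with glucagon did not overlap the 4 without it, as was so for 13% of all genes. Each is the RefSeq window of 250 bases before to 50 after a start, build GRCm38.p6, 5′ to 3′ on the strand of the gene. Capitals mark the cyclic AMP response half-site TGACG on either strand, and the full palindromic element TGACGTCA, in which a pair of half-sites overlap.
Adcy9 (chr16:4420449-4420748, minus strand): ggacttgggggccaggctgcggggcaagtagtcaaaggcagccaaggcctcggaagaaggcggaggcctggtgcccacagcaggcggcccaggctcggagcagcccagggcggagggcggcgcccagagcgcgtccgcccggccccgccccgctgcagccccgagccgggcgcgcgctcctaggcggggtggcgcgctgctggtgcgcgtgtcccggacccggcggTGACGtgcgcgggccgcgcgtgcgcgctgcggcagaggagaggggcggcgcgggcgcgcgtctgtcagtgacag
Prkar1a (chr11:109650699-109650998, plus strand, 1 of 6 windows of this gene): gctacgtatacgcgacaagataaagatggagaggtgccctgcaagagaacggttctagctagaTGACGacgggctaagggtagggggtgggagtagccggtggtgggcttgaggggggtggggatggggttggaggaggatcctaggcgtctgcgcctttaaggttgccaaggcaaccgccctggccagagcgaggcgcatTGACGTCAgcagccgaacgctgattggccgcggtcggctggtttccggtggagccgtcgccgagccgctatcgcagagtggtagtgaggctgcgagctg
Creb1 (chr1:64532554-64532853, plus strand): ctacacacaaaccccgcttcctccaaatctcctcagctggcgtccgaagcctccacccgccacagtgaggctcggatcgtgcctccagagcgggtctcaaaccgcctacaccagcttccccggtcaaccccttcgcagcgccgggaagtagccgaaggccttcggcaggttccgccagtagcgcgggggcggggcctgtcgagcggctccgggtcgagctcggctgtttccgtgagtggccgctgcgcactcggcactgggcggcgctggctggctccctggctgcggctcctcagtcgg
The Adcy9 window held 1 half-site, at position -24 from the start, the Prkar1a window held the full element and a separate half-site, and the Creb1 window held neither. Windows were matched for 7 of the 10 members, all but Adcy6, Crtc2 and Gnai2, and those of Gcgr, Gnas, Prkaca and Prkar2a are not printed. The half-site was in 9 of the 16 windows of these members, and in 20.8% of all 32851 windows. Some of the 9 are not separate: 2 overlapping windows of Gnas hold the same site, and 2 of Prkar1a share theirs. Counted by gene the half-site was in 5 of the 7 members and in 23.0% of all 27025 genes, where a gene with several windows, such as Prkar1a or Gnas, has more chances of a match. The windows were not matched for base composition, so these shares are not read as an enrichment. The full element was in 2 overlapping windows of Prkar1a and in no window of the other 6 members matched, and in 1.79% of all windows. The Prkar1a window was picked because it is 1 of the 2 with the full element, and 3 of the 6 windows of the gene held no half-site. A match describes the letters of a window and is not a shown binding site.

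**Figure D1:**
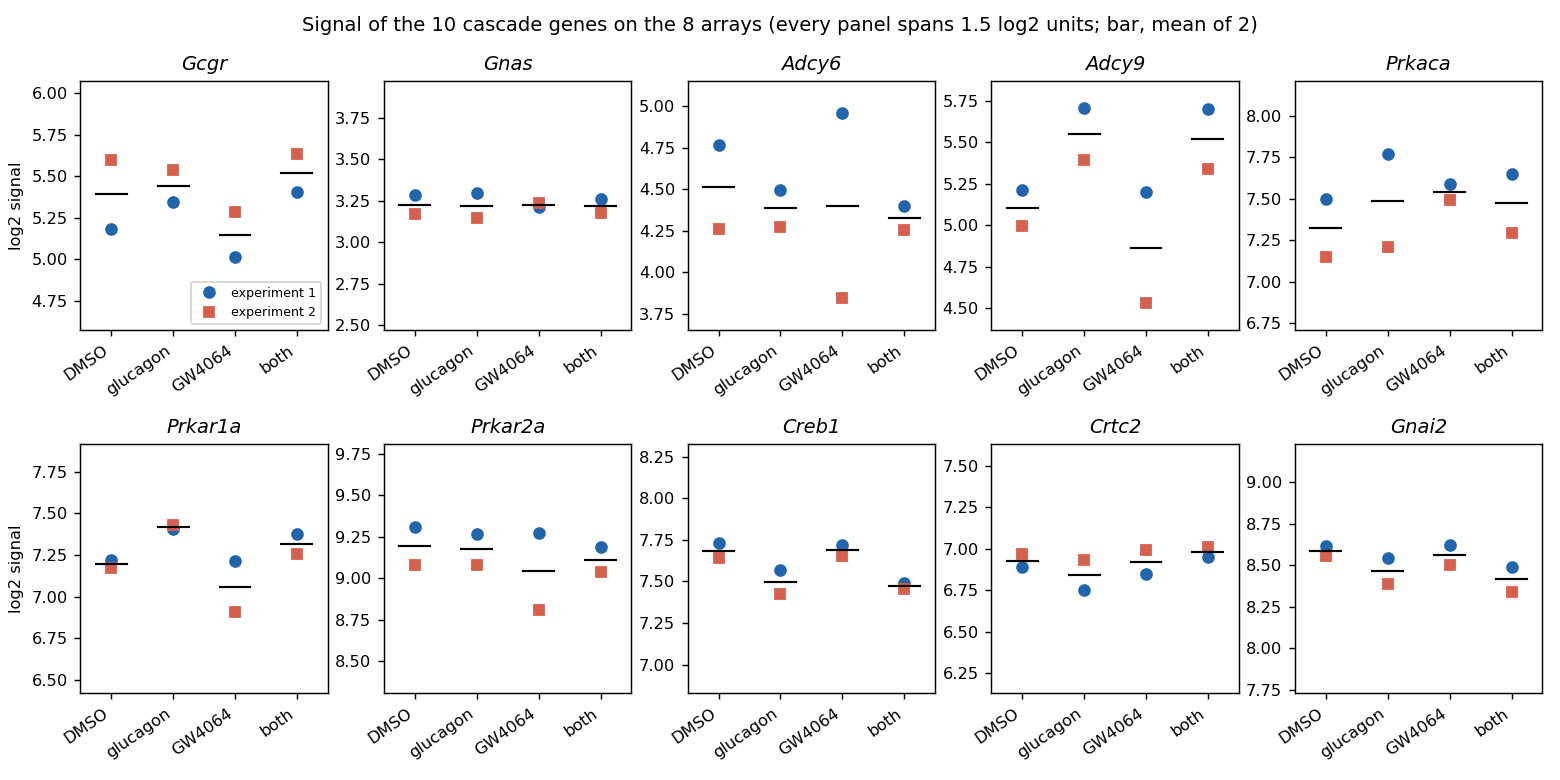
Log2 signal (y axis) of the 10 cascade genes on each array, by treatment (x axis), with circles for experiment 1, squares for experiment 2 and a bar at the mean of 2 arrays. Every panel spans the same range, so that panels can be compared: Adcy9 lay at 5.34 to 5.71 with glucagon and at 4.53 to 5.21 without it, while Gnas stayed at 3.14 to 3.29.

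Gcgr, the receptor at the head of the cascade, was read by probe set 17259401 at a log2 signal of 5.01 to 5.63, above the filter on all arrays. In experiment 1 it was 5.18 with DMSO, 5.35 with glucagon, 5.01 with GW4064 and 5.40 with both agents. In experiment 2 it was 5.60, 5.54, 5.28 and 5.63 in the same order. Within each experiment the GW4064 array was the lowest and the array with both agents the highest, and every array of experiment 2 exceeded its counterpart of experiment 1. From lowest to highest, group means were 5.15 ± 0.19 (SD, n = 2) with GW4064, 5.39 ± 0.29 with DMSO, 5.44 ± 0.13 with glucagon and 5.52 ± 0.16 with both, and each differed from the next by less than the larger SD of that pair. The ends of this order, GW4064 and both agents, differed by more than either SD. For glucagon alone the Gcgr difference was 0.05 (SE 0.19, 95% interval -0.39 to 0.49), and with GW4064 present it was 0.37 (SE 0.19, -0.07 to 0.81, limma adjusted p = 0.542). With the block the interval of the latter was 0.10 to 0.63 (limma adjusted p = 0.185), and the experiments gave 0.39 and 0.35. Averaged over the arrays with and without GW4064, the glucagon difference was 0.21 (SE 0.13, interval -0.10 to 0.52, limma adjusted p = 0.528). With the block the interval of this average was 0.02 to 0.40 (limma adjusted p = 0.179). Gcgr was higher with glucagon in 3 of 4 matched pairs, and in 4 of 4 under quantile normalization. GW4064 without glucagon gave -0.17 and -0.31 in the experiments, and on top of glucagon 0.05 and 0.10. The difference between these effects was 0.32 (SE 0.27, interval -0.31 to 0.94) and did not pass the interaction test, in which 0 of 13845 genes passed and 149 had an unadjusted p under 0.05. With the block its interval was -0.06 to 0.69, and again 0 genes passed. The 5 genes whose signal followed Gcgr most closely over the 8 arrays were Ung, a uracil-DNA glycosylase (Pearson r = 0.981), Snapc1 (0.972), Retreg2 (0.971), Epm2a (0.966), whose signal of 2.74 to 3.69 straddled the filter, and Psme4, a proteasome activator (0.965). These are the highest of 13844 correlations over the same 8 arrays, and all 5 genes had a higher mean in experiment 2, as Gcgr had.

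Of the G proteins, Gnas encodes the stimulatory alpha subunit and Gnai2 an inhibitory one that restrains adenylyl cyclase. The single probe set assigned to Gnas alone, 17380306, gave 3.28, 3.29, 3.21 and 3.26 in experiment 1 (DMSO, glucagon, GW4064, both) and 3.17, 3.14, 3.24 and 3.17 in experiment 2. It exceeded the filter on 6 of 8 arrays by at most a small margin, so the values of Gnas say little about its transcript. A further probe set, shared with the antisense gene Gnasas1, was below the filter on all 8 arrays, at 2.36 to 2.78. The Gnas locus makes several transcripts from separate starts, and which of them the probe set covers was not examined. Glucagon gave a difference of -0.01 for Gnas (SE 0.09, n = 4 arrays each way), an interval from a probe set at the filter level that excludes no difference in the transcript.

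Gnai2 (probe set 17530955) was well above the filter, at 8.61, 8.54, 8.62 and 8.49 in experiment 1 and 8.56, 8.39, 8.50 and 8.34 in experiment 2, in the order DMSO, glucagon, GW4064, both. It was lower with glucagon in 4 of 4 matched pairs, by 0.07 to 0.17 in size, although the arrays with and without glucagon overlapped. The average difference was -0.13 (SE 0.09, interval -0.34 to 0.08, limma adjusted p = 0.558, 0.343 with the block). A direction shared by all 4 pairs was seen for 4 of the 10 members and for 32.1% of all genes.

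Adenylyl cyclase makes cyclic AMP from ATP. Adcy9 (probe set 17327720) showed the largest glucagon difference among the 10 members. In experiment 1 its signal was 5.21 with DMSO and 5.71 with glucagon, and 5.20 with GW4064 and 5.70 with both agents. Experiment 2 gave 4.997 and 5.39, then 4.53 and 5.34. The 4 arrays with glucagon lay above the 4 without it, as they did for 6.07% of all genes (13% in either direction). The average difference was 0.55, a 1.46-fold higher signal (SE 0.18, interval 0.13 to 0.97), with a limma adjusted p of 0.214 without and 0.0294 with the experiment as a block. It was 0.50 in experiment 1 and 0.60 in experiment 2. Without the GW4064 array of experiment 2, which was the lowest at 4.53, the blocked difference was 0.46. The blocked call was lost on leaving out a DMSO array, a glucagon array or an array with both agents (adjusted p up to 0.162 over these 6). Without the block it passed in 1 of 8 such fits, that without the GW4064 array of experiment 1 (0.72). That fit also called more of all genes than the fit of all 8 arrays. Glucagon alone gave 0.45 (SE 0.25) and glucagon in the presence of GW4064 gave 0.65 (SE 0.25), neither past the test with or without the block, and the interaction did not pass (0.21, SE 0.36, interval -0.63 to 1.05).

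Adcy6 (probe set 17321263), the other cyclase, went different ways in the experiments. In experiment 1 it was 4.77 with DMSO, 4.50 with glucagon, 4.96 with GW4064 and 4.40 with both, lower in both arrays with glucagon. In experiment 2 it was 4.26, 4.28, 3.84 and 4.25, lowest on the GW4064 array that stood apart. The glucagon effect averaged -0.41 in experiment 1 and 0.21 in experiment 2, and -0.10 over both (SE 0.25, interval -0.69 to 0.49). The value turned on the GW4064 arrays: it was -0.38 without that of experiment 2 and 0.18 without that of experiment 1, and neither passed. These fits set a lone GW4064 array of 1 experiment against arrays of both, and so include the difference between experiments. With the block the value without the GW4064 array of experiment 2 was -0.31. Adcy6 had the widest interval of the 10 members, and differences of up to 0.69 in size are not excluded by it. With the block the interval of Adcy6 was -0.49 to 0.29.

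PKA is a complex of catalytic and regulatory subunits. Prkar1a, the type I regulatory subunit that holds the kinase inactive until cyclic AMP binds, was read by probe set 17257874. Its signal was 7.22 with DMSO, 7.40 with glucagon, 7.21 with GW4064 and 7.37 with both in experiment 1, and 7.17, 7.43, 6.91 and 7.25 in experiment 2. The arrays with glucagon lay above those without it, as they did for 6.07% of all genes. The average difference was 0.24 (SE 0.10, interval 0.01 to 0.47), present in 4 of 4 pairs. It did not pass (limma adjusted p = 0.333, 0.164 with the block), and it was 0.17 with the block and without the GW4064 array of experiment 2. Of the alternatives run, it passed in 1, with the block and without the GW4064 array of experiment 1 (0.30, adjusted p = 0.0456).

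Prkar2a, the type II regulatory subunit, had the values 9.31, 9.27, 9.28 and 9.19 in experiment 1 and 9.08, 9.08, 8.81 and 9.04 in experiment 2 (probe set 17521887; DMSO, glucagon, GW4064, both). Arrays with and without glucagon overlapped, and the average glucagon difference was 0.02 (SE 0.13, interval -0.29 to 0.34). Prkaca, the catalytic subunit, had 7.50, 7.77, 7.59 and 7.65 in experiment 1 and 7.15, 7.21, 7.49 and 7.30 in experiment 2 (probe set 17503031). Its glucagon difference was 0.05 (SE 0.16, interval -0.33 to 0.43). A second Prkaca probe set, 17510983, was dim at 3.30 to 3.78 and had its lowest value on the GW4064 array of experiment 2, where the brighter one had its highest of that experiment.

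Creb1, the transcription factor that PKA phosphorylates, had the most regular pattern (probe set 17213676). In experiment 1 it was 7.73 with DMSO, 7.57 with glucagon, 7.72 with GW4064 and 7.49 with both. In experiment 2 it was 7.64, 7.43, 7.66 and 7.45. The arrays with glucagon, at 7.43 to 7.57, lay below those without it, at 7.64 to 7.73, as they did for 6.88% of all genes. The difference was -0.16, -0.21, -0.23 and -0.20 in the 4 pairs. On average it was -0.20 (SE 0.08, interval -0.40 to -0.00), and it did not pass over all genes (limma adjusted p = 0.335, 0.165 with the block). Glucagon accounted for 82.2% of the sum of squares of Creb1 over the 8 arrays, the highest share among the members, against a median of 16.4% over all genes. How many of all genes reached such a share was not counted. In size the average difference of Creb1 exceeded that of 68.8% of all genes. GW4064 left Creb1 within -0.08 and 0.03 of its paired array in all 4 pairs.

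Crtc2, the coactivator that carries the signal to CREB target genes, varied least after Gnas, over 6.75 to 7.01 (probe set 17399679). Its values were 6.89, 6.75, 6.85 and 6.95 in experiment 1 and 6.97, 6.93, 6.99 and 7.01 in experiment 2, in the order DMSO, glucagon, GW4064, both. The glucagon difference was -0.14 and -0.03 without GW4064 and 0.10 and 0.02 with it, and averaged -0.01 (SE 0.09, interval -0.23 to 0.20). Differences beyond 0.23 in size thus lie outside the interval for Crtc2, while for Adcy9 it reaches 0.97. With the block the intervals were -0.19 to 0.16 for Crtc2 and 0.32 to 0.78 for Adcy9. These intervals are for single genes and are not adjusted for the number of genes.

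**Figure D2:**
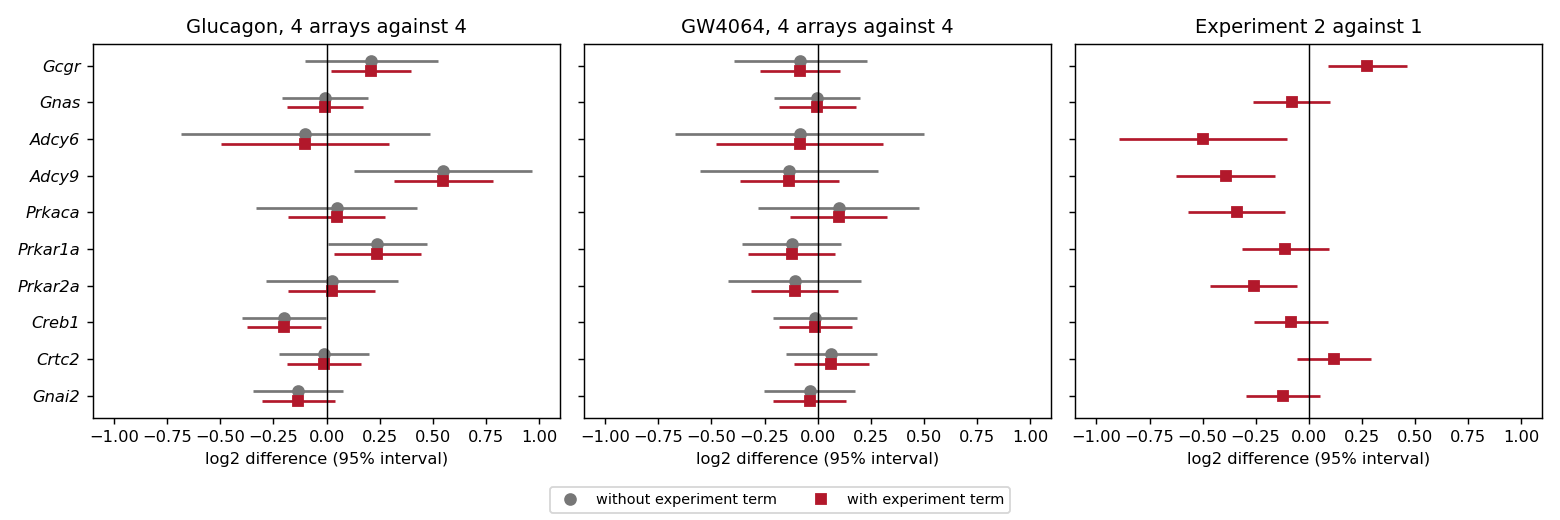
Log2 difference of each cascade gene (x axis) with its 95% limma interval, for glucagon, for GW4064 and for experiment 2 against experiment 1, each 4 arrays against 4. Circles are the fit without and squares the fit with an experiment term; with glucagon Adcy9 lay farthest from 0, at 0.55, and with GW4064 every interval included 0.

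For GW4064, 0 of the 10 genes passed the test, with or without glucagon or on average. The average differences lay between -0.13 for Adcy9 (SE 0.18, interval -0.55 to 0.29) and 0.10 for Prkaca (SE 0.16, -0.28 to 0.48). Adcy9, Prkar1a and Prkar2a were lower with GW4064 in 4 of 4 pairs, as were 8.06% of all genes. No member separated the 4 arrays with GW4064 from the 4 without it, as 1.18% of all genes did. The largest of these differences were on the GW4064 array of experiment 2: -0.47 for Adcy9, -0.27 for Prkar1a and -0.27 for Prkar2a against DMSO, where experiment 1 gave -0.01, -0.01 and -0.04. Without that array GW4064 against DMSO gave 0.10 for Adcy9, 0.01 for Prkar1a, 0.08 for Prkar2a and 0.45 for Adcy6, none past the test. These values set an array of experiment 1 against DMSO arrays of both experiments. With the block they were -0.05, -0.01, -0.02 and 0.30, so that 3 of the 4 signs turned back. By limma 0 of 13845 genes passed for the average GW4064 effect (216 had an unadjusted p under 0.05, none of them a member), and 0 passed with the block. Abcb11, the bile salt export pump and an FXR target, differed by 0.59 (SE 0.21) and Nr0b2, the FXR-induced repressor, by 0.34 (SE 0.12), and neither passed. A miss of the threshold does not show that GW4064 left the cascade as it was: the intervals allow differences of up to 0.67 in size for Adcy6. With the block the interval of Adcy6 was -0.48 to 0.31.

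The single comparisons had the same outcome. For glucagon against DMSO 0 of 10 members passed, where 0.116% of all genes did, and the differences lay between -0.19 (Creb1) and 0.45 (Adcy9). For both agents against DMSO 0 of 10 passed, against 0.123% of all genes, with differences of -0.21 (Creb1) to 0.42 (Adcy9). These comparisons share their DMSO arrays. For glucagon in the presence of GW4064, which shares no array with glucagon against DMSO, 0 of 10 passed against 0.166% of all genes, and the differences were -0.21 (Creb1) to 0.65 (Adcy9). For GW4064 on top of glucagon they were -0.11 (Prkar1a) to 0.14 (Crtc2), and 0 members and 0 genes passed (90 genes at an unadjusted p under 0.05). With the block 0 members passed in each of these 4 comparisons, where 0.925% of all genes did for glucagon against DMSO, 0.737% for both agents against DMSO and 1.06% for glucagon in the presence of GW4064.

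**Figure D3:**
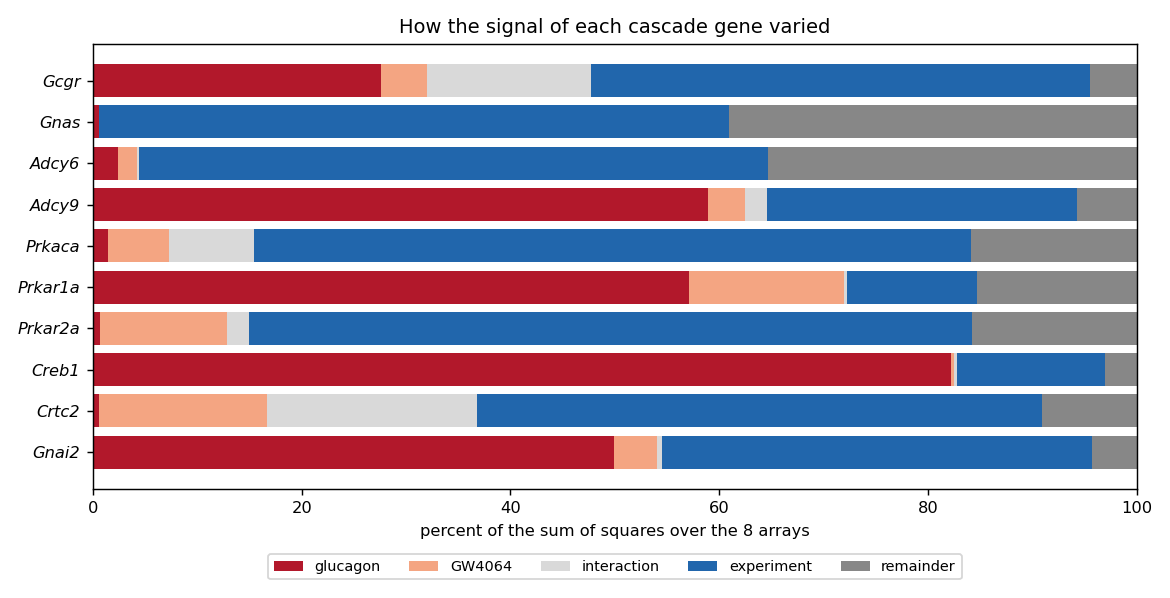
Percent of the sum of squares over the 8 arrays (x axis) that fell to glucagon, GW4064, their interaction, the experiment and the remainder, for each cascade gene. Glucagon took 82.2% for Creb1 and 59.0% for Adcy9, and the experiment took 69.2% for Prkar2a and 68.7% for Prkaca.

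For 6 of the 10 genes the experiment took a larger share of the variation than either agent: 69.2% for Prkar2a, 68.7% for Prkaca, 60.3% for Adcy6, 60.3% for Gnas, 54.2% for Crtc2 and 47.8% for Gcgr, where the median over all genes was 18.3%. How many of all genes had this order was not counted, so it is not read as particular to the cascade. The probe set of Gnas lay at the filter level. Glucagon took the largest share for Creb1, Adcy9 (59.0%), Prkar1a (57.1%) and Gnai2 (49.9%). Compared directly, 0 of 10 members passed between experiments (limma, treatments balanced), where 5.16% of all genes did. Unadjusted p-values were below 0.05 for 5 of 10 members and 23.9% of all genes. Gcgr was higher in experiment 2, by 0.28 (SE 0.08, adjusted p = 0.0963), in 4 of 4 treatments. Adcy6 was lower, by 0.50 in size (-0.50, SE 0.16, adjusted p = 0.134), as were Adcy9 (-0.39, SE 0.10, adjusted p = 0.0729), Prkaca (-0.34, SE 0.10, adjusted p = 0.0933) and Prkar2a (-0.26, SE 0.09, adjusted p = 0.135), each in 4 of 4. Crtc2 was also higher in 4 of 4, by 0.12 on average, and Creb1 (-0.08) and Gnai2 (-0.12) were lower in 4 of 4. Over all genes 13.8% were higher and 20.8% lower in 4 of 4. Under quantile normalization Prkaca, Creb1 and Gnai2 each had 1 pair of the other sign.

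The 4 arrays of experiment 2 lay below those of experiment 1 without overlap for Adcy6, Prkaca and Prkar2a, as they did for 8.27% of all genes (6.12% lay above and 14.4% in either direction). For Prkaca the gap was narrow, between 7.491 and 7.499, and the pair that turned under quantile normalization was higher in experiment 2 by 0.06. Leaving out either GW4064 array is the same fit here, because the remaining one then carries no information on the experiments. In that fit the Prkaca difference was -0.42. With the mean of its 2 probe sets in place of the brighter one its difference was -0.21. Endothelial markers moved with the experiments: their median signal was 4.62 to 4.74 in experiment 1 and 4.15 to 4.44 in experiment 2, and Lyve1 (-1.02) and Fcgr2b (-0.46) of 6 tested fell. The hepatocyte marker Asgr1, 1 of 9 tested, rose by 0.71 in experiment 2. So did Cd68 (0.43) and Marco (0.38) of 7 macrophage markers tested, and Rgs5 (0.61) of 3 stellate cell markers. These genes, with Lyve1 and Fcgr2b, are named because they passed the test (limma, adjusted p below 0.05). The hepatocyte marker Hnf4a was higher by 0.81 and did not pass. Other markers of these lists were lower without passing, among them Apob, Serpina1c, Clec4f, Csf1r, Lyz2, Acta2 and Pdgfrb. In such bulk samples fewer cells of a type and less RNA per cell cannot be told apart, and the part of these markers in the differences between experiments was not tested.

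Beyond the 10 genes, a list of 72 symbols around the cascade was read (receptors and their regulators, further G proteins, cyclases and PKA subunits, anchoring proteins, phosphodiesterases, EPAC, CREB partners and salt-inducible kinases), of which 45 cleared the filter. In the average glucagon effect 4 of the 45 rose (1 of them, Pde4b, tested only because it was above the filter with glucagon) and 0 fell, where 0.816% of all genes rose and 0.506% fell. The list was chosen with earlier results of these data known, so the count beside these shares is no support for a change of the list. The median difference was 0.05, against -0.00 over all genes. Sik1, a kinase that phosphorylates CRTC2 and keeps it out of the nucleus, rose by 1.60 (SE 0.20, limma adjusted p = 0.0187). In experiment 1 the Sik1 signal was 6.98 with DMSO, 8.85 with glucagon, 7.94 with GW4064 and 9.07 with both, and in the same order experiment 2 gave 6.88, 8.56, 7.07 and 8.81. Rgs2, which shortens G protein signals, rose by 3.32 (SE 0.57, adjusted p = 0.0488; 0.0634 with no filter), from 3.73 to 5.94 without glucagon to 7.57 to 8.86 with it.

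The phosphodiesterase genes Pde4b and Pde3b, whose products break down cyclic AMP, rose by 0.86 (SE 0.13, adjusted p = 0.0339) and 0.50 (SE 0.09, adjusted p = 0.049). Pde4b lay at 2.71 to 2.97 without glucagon, below the filter, and at 3.55 to 4.16 with it, so the size of its rise is uncertain. It entered the test only through the arrays with glucagon, so its p-value and its place among the 4 are no support for a change of the list. Pde3b lay at 7.25 to 7.39 without and 7.67 to 7.98 with glucagon. With the averaging of probe sets Rgs2 gave 1.82 (adjusted p = 0.0531). With the block 4 rose and 1 fell, the anchoring protein gene Akap12 (-1.18, adjusted p = 0.134 without and 0.0339 with the block). Single arrays decided the count without the block: it was 0 without the DMSO array, the glucagon array or the array with both agents of experiment 1, or that with both agents of experiment 2, 6 without the GW4064 array of experiment 1, and 1 without the DMSO or glucagon array of experiment 2. None of the 11 further G protein genes tested and none of the 5 CREB partners passed. Among cyclases and PKA subunits other than the members only 1 each cleared the filter, and neither passed.

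On average 0 of the 45 passed with GW4064. The smallest p-values were those of Crtc1, a relative of Crtc2 (-0.33, SE 0.13), Sik1 (0.41, SE 0.20) and the arrestin gene Arrb1 (-0.24, SE 0.12). Between the experiments 3 of the 45 passed, against 5.16% of all genes. Rgs2 rose by 1.39 in experiment 2 (SE 0.23, adjusted p = 0.025), the receptor kinase gene Grk6 fell by 0.54 (SE 0.11, adjusted p = 0.0422), and the inhibitory G protein gene Gnai1 fell by 0.35 (SE 0.07, adjusted p = 0.0492). Gnai1 lay at 2.93 to 3.58, around the filter, and did not pass with no filter (adjusted p = 0.0521). The count was 0 on leaving out an array with DMSO, with glucagon or with both agents.

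**Figure D4:**
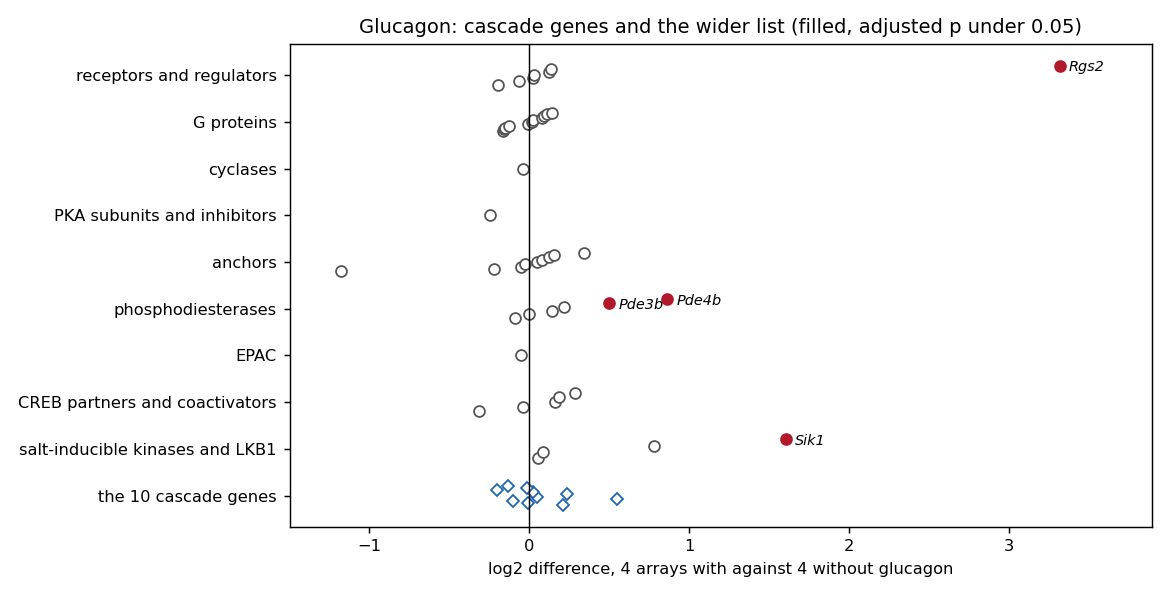
Log2 difference between the 4 arrays with and the 4 without glucagon (x axis) for the 10 cascade genes (diamonds) and the 45 tested genes of the wider list by role (circles). Filled circles passed the limma test: Rgs2 at 3.32, Sik1 at 1.60, Pde4b at 0.86 and Pde3b at 0.50, while the 10 cascade genes lay between -0.20 and 0.55.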

How the data were processed

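Gene expression was measured on 8 Affymetrix MoGene 2.0 ST arrays, 4 treatments in 2 experiments. The values are deposited log2 signals, made by the authors in GeneSpring from 2 pooled technical replicates per sample, per the labels. The sources used here do not give the version, background correction, summarisation or genome build. The log2 scale was read from the range of the values. Of 41345 probe sets, the platform annotation gives 23521 exactly 1 symbol. Probe sets had to lie above the 40th percentile of signals on 2 or more arrays, and the brightest per gene was used, which left 13845 genes.

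The test was limma's (version 3.58.1, R 4.3.3), with 1 mean per group over all 8 arrays, contrasts between groups and default empirical Bayes moderation. P-values are two-sided, with Benjamini-Hochberg adjustment over every gene tested. Average effects set 4 arrays against 4, and the experiments were compared in a model with group and experiment. The labels give each experiment its own cell pool, so arrays of an experiment are paired. Deviations from group means correlated within experiments at r = 0.350 to 0.620, and the experiment was also fitted as a block. The replicates are separate cell pools, and their number limits the precision.

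The fit without the block was tried on simulated data for glucagon against DMSO and for the average glucagon effect. The noise was independent between arrays, and the planted changes were larger than those of the members. No difference between experiments was simulated, so the block and the comparison of experiments were not tested in this way. The members, the wider list, the markers and the tests were chosen with earlier results of these data known. All 10 members were named, with the genes of the wider list that passed (or the 3 with the smallest p), Pck1, G6pc, Abcb11 and Nr0b2 as checks of the agents, and the 5 genes most correlated with Gcgr. Markers and promoters were named after their values were seen. No protein sequences were used here. Alternatives were quantile normalization, no filter or a filter at the 60th percentile, only the groups compared, the block, variance trend with robust moderation, the mean of a gene's probe sets, and leaving out each array. The leave-one-out fits assume that a lone array varies like the other groups.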

Additional observations from a re-analysis of the deposited data

How the results depend on the processing

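The differences of the 10 genes were computed 1471 times under the alternatives, of which 1327 kept their sign and 1423 moved by less than 1 SE. Many of these could not move. The block, the variance trend and the use of only the groups compared leave a difference as it was. Leaving out an array outside the comparison does so too. These totals are thus no measure of how stable the differences were. In the average glucagon effect the number of members past the test was 0 as reported and 1 (Adcy9) with the experiment as a replicate block. It was also 1 with the block on quantile-normalized values, where 914 of 13845 genes passed. Leaving out 1 array changed this count, with and without the block, as it changed the count over all genes. These counts are therefore not read as a result about the members. Between experiments the number was 0 as reported. Only leaving out a GW4064 array changed it, through Prkaca, and leaving out either of them is the same fit. The wider list gave 4 with glucagon as reported, 5 with the block, 7 with the block and without the GW4064 array of experiment 2, 0 to 6 on leaving out 1 array and 2 to 7 with the block and 1 array left out. Between experiments it gave 3, and 0 to 2 on leaving out 1 array. The block on quantile-normalized values, the block with 1 array left out and all alternatives for the wider list were chosen after the values were seen. In the other 7 comparisons the count of members was 0 under every alternative run. Over all genes the count for the average glucagon effect was 183 without and 797 with the block. With 2 arrays per group and signals near the filter, values of Gnas, Pde4b and Gnai1 are the least certain.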
